A study of Homo sapiens with 4 samples.

Results

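An exact excision of the recorder's 3 cut sites, a deletion of 108 bases listed as the same text at cut sites 1, 2 and 3 with no other indel, was found in 6398 of the 301829 alleles of the data set (2.12%). An allele is the sequence read for 1 target site in 1 cell. The excised alleles, called 108-base excisions here, were carried by 4854 of the 34557 cells and by 65 of the 117 integration barcodes (intBCs), the random 14-base tags that tell the target sites of a cell apart. They were chosen by the text of the call alone. All cells are A549, a human lung adenocarcinoma line, infected in series with lentiviruses for Cas9, the target sites and 3 sgRNAs. A small pool of founder cells was grown and divided over new plates at 2 splits. Each of the 4 final plates (00, 01, 10 and 11) gave a single library of target site transcripts. No untreated plate was among the samples, and no plate has a replicate. The first digit of the plate is read here as the plate of the first split, an order the methods do not state. Plates 00 and 01 are called the 0 side and plates 10 and 11 the 1 side. The authors assigned the cells to 11 clones, numbered 1 to 11, by the intBCs that they share. They deduced that 2 of the 3 sgRNAs were defective in Clone 1.

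Cas9 cuts both strands at the site its sgRNA matches, and the cell rejoins the ends, often with an insertion or a deletion. Where neighbouring sites are cut together, the stretch between the cuts can be lost and the outer ends joined. In a lineage recorder such a loss is inherited by all descendants and cannot be edited further, since no complete site remains.

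The joint shows which ends were put together. The lines below give the 5 bases on each side of a cut or joint as the allele table lists them, with capitals for the bases after it, so that the sides of each uncut site can be found again in the joints.
Cut site 1, uncut: ccgaaAAATG
Cut site 2, uncut: gatatCTCTG
Cut site 3, uncut: attcgCGGAG
108-base excision from position 113: ccgaaCGGAG
54-base excision from position 113: ccgaaCTCTG
54-base excision from position 167: gatatCGGAG
107-base deletion from position 113: ccgaaGCGGA
The 108-base excision joins the left side of cut site 1 to the right side of cut site 3, and the 2 excisions of 54 bases join cut sites 1 and 2 and cut sites 2 and 3 in the same way. In the numbering of the target site reference, the last bases before the cuts are 112, 166 and 220. The 108-base excision removes bases 113 to 220. Shifted by 1 base to either side, the deletion gives another sequence, because the bases at its edges differ (A and G on the left, A and C on the right), so this call has a single placement. The target sites entered the genome at random places, and no genome position is known for them.

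Nearly every 108-base excision was the same joint. Start position 113 accounted for 6395 of the 6398 alleles, and 6394 of these had the joint shown above. The other allele from 113 differed by 1 base in the left context (ctgaaCGGAG) and rested on 1 UMI in Clone 5. The other start positions were seen in 1 cell each. A deletion from 112 in Clone 3 (gccgaGCGGA) had 28 UMIs, a deletion from 117 in Clone 3 (aaaatGGACA) had 14 UMIs and a deletion from 123 in Clone 4 (gcctgTGCGG) had 4 UMIs. The deletions from 112 and 117 lay in the same intBC, tcgtggccggcgta, which was also excised from 113 in 31 cells. That makes it the single intBC with more than 1 start position. A further 4 alleles held a deletion of 108 bases that was not listed at all 3 sites, and these were not counted.

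Among single deletions listed at all 3 cut sites, 108 bases was the most frequent of 100 lengths, with 6398 of 11895 alleles (53.8%). It was also found in the most intBCs, 65 against 14 for a length of 107 bases. The next length by alleles, 105 bases, had 3834 alleles in 3 intBCs. Just outside the chosen length, 107 bases had 265 alleles, 258 of them from position 113 with 1 more base kept at cut site 3, and 106 bases had 14 alleles in 3 intBCs. A length of 109 bases had 10 alleles in 6 intBCs. Clones 5 and 7 weigh heavily in these counts. Without them, 1911 of 7107 deletions across all 3 sites (26.9%) were of 108 bases.

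The excisions of 54 bases are the closest relatives of this call. Of the deletions that join cut sites 2 and 3, 18653 of 22569 (82.6%) were of exactly 54 bases, and of those that join cut sites 1 and 2, 9838 of 25222 (39.0%). Counted once per intBC, so that the growth of a subclone does not add to the count, exact excisions made up 67 of 295 intBC and deletion pairs for all 3 sites (22.7%), 64 of 709 for sites 1 and 2 (9.03%) and 79 of 635 for sites 2 and 3 (12.4%). Exact means by length alone in this paragraph, at any start position. The main start position held 6395 of the 6398 alleles for all 3 sites. It held 9830 of 9838 for sites 1 and 2 and 18645 of 18653 for sites 2 and 3. These shares are given side by side without a test. Repeated origins within an intBC are also counted once, so the shares of pairs are not shares of separate events. Of the 65 intBCs with a 108-base excision, 50 also had the exact join of sites 1 and 2, 52 that of sites 2 and 3, and 47 had both. Exact joins of neighbouring sites were found in 58 and 73 intBCs in all.

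The frequency of the 108-base excision differed between clones from 0 to 38.2% of alleles. Clone 7 had 1463 excised alleles of 3834 (38.2%, exact 95% interval 36.6 to 39.7%) and Clone 5 had 3024 of 10344 (29.2%, 28.4 to 30.1%). Together they held 4487 of all 6398, or 70.1%. Clone 6 followed with 626 of 5920 (10.6%, 9.80 to 11.4%) and Clone 4 with 218 of 15425 (1.41%, 1.23 to 1.61%). Clones 10, 9, 2, 3 and 8 had 0.748%, 0.608%, 0.510%, 0.430% and 0.402%. Clone 1 had 0 of 60765 alleles, which allows a share of up to 0.00494%, and Clone 11 had 0 of 817, which allows up to 0.367%. Such limits for a count of 0 are 3 counts of the total. Since the authors deduced 2 defective sgRNAs in Clone 1, its limit does not describe a clone with 3 working sgRNAs. The intervals and limits cover counting error only, since the cells of a clone share ancestors and an early excision is counted in each of its descendants.

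The number of intBCs hit gave another order of the clones. In Clones 3 and 6 every intBC was excised in at least 1 cell, 16 of 16 and 5 of 5. Clone 2 had 16 of 17, Clone 10 had 10 of 12 and Clone 4 had 7 of 9. Clone 5 carried the excision in 4 of 9 intBCs, while Clones 7, 8 and 9 carried it in a single intBC, of 3, 9 and 7. Clones 7 and 5, with the highest shares of alleles, thus had few excised intBCs. Their median was 1463 and 744.5 excised cells per excised intBC. Clone 6, next by share, had a median of 6. The numbers of intBCs hit were not adjusted for clone size, which ran from 137 cells in Clone 11 to 8719 in Clone 1.

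Editing of the clone was counted over all other alleles, as the share of listed cut sites that hold an indel. It was 5.31% in Clone 1, where sites 1 and 2 were edited in 0.0773% and 0.114% of alleles and site 3 in 15.7%. The authors built no tree of this clone because of its defective sgRNAs, and none of Clone 7 because few of its cells were unique. Editing was 25.8% in Clone 3 and 36.5% in Clone 2. Clones 10, 6 and 4 lay between 44.1% and 74.6%, with 47.3% in Clone 6. The remaining clones were edited at most of their sites, from 84.0% in Clone 8 through 90.9% (Clone 11) and 93.8% (Clone 9) to 99.4% in Clone 5 and 99.7% in Clone 7. Over the 11 clones, the share of excised alleles against editing gave a Pearson's r of 0.50 and a Spearman's rho of 0.52. With the 2 clones farthest from the median editing (Clones 1 and 3) left out, r was 0.47 and rho 0.37. Without Clones 5 and 7, r was -0.072 and rho 0.13, so the relation rests on those 2 clones. The share of a clone's intBCs that were excised gave r = -0.39 and rho = -0.33 against editing. These values are descriptions. The clones share the 4 libraries. Clone 11, with 90.9% of its sites edited and no excision, and Clone 6, with 47.3% edited and 10.6% excised, show how far single clones lay from any common line.

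Most excised intBCs carried the excision in few cells. Of the 61 intBCs of the 11 clones with an excision, 40 had it in under 1% of the cells in which the intBC was listed, 15 in 1 to 5%, 3 in 5 to 50% and 3 in over 50%. The median share was 0.556% and the median number of excised cells was 20. In 6 intBCs it was seen in a single cell. The 10 intBC and start position groups with the most cells, all from position 113, are listed here by clone, with a name made of the clone number and a letter.
5-a: agatgtcccaccct
7-a: ttgttgtaaaccag
5-b: acctgaccttactt
6-a: aaccaatatacagg
5-c: agagagctaccgta
3-a: tcatttatcttagg
2-a: ggaaacgttttatc
4-a: accttgaagatatt
2-b: ttctttacttttgg
3-b: ggacatacgtagaa

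IntBC 5-a of Clone 5 and intBC 7-a of Clone 7 were excised wherever they were read, in 1488 of 1488 and in 1463 of 1463 cells. For intBC 7-a these were 587, 682, 112 and 82 cells of plates 00, 01, 10 and 11, so the excision was shared by both first-split plates. IntBC 5-a was read only in plates 00 (674 cells) and 01 (814 cells). IntBC 5-b was excised in 543 of 584 cells of plate 00 and 647 of 730 of plate 01 (90.4% over all plates), and intBC 5-c in 133 of 479 and 166 of 572 (28.4%). IntBC 6-a of Clone 6 was excised in 48.1%, 46.4%, 45.2% and 30.2% of its cells in plates 00, 01, 10 and 11, with plate 11 the lowest.

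In Clone 5 the first-split plates carried the excision in different intBCs. The 1618 cells of plates 00 and 01 had it in intBC 5-a, intBC 5-b and intBC 5-c. Another intBC, ggtttactgagtag, added here after its values were seen, was never excised there (0 of 1437 cells, which allows up to 0.209%), and 1185 of those cells carried deletions of 68 bases at 108 and of 42 bases at 182 instead. In plates 10 and 11, which held 102 cells of the clone, the same intBC was excised in 47 of 47 cells. IntBC 5-a and intBC 5-c were not listed in any of the 102 cells, which allows a share of up to 2.94%, and intBC 5-b was listed in 2. The intBC ttattttgaggcaa was read in 1549 of 1618 and 102 of 102 cells, with the same allele in 1546 and 101 of them. No intBC was thus excised on both sides of the first split in Clone 5, while that allele was shared by nearly all its cells.

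The other large groups lay mostly on 1 side of the first split. IntBC 3-a of Clone 3 was excised in 49, 78, 1 and 1 cells of plates 00, 01, 10 and 11, which is 5.30% of its cells on the 0 side and 0.0956% on the 1 side. IntBC 2-a of Clone 2 leaned to the other side, with 1, 2, 60 and 49 cells (0.181% and 2.89%). IntBC 4-a of Clone 4 had 49, 35, 1 and 1 cells (18.4% and 1.01%). IntBC 2-b of Clone 2 had 8, 36, 12 and 9 cells (2.36% and 0.461%), and intBC 3-b of Clone 3 had 21, 27, 1 and 7 (1.48% and 0.351%). Over the 61 intBCs, 39 had excised cells on both sides and 23 in all 4 plates. Of the 55 with at least 2 excised cells, 16 had them on 1 side. From these counts, an excision before the first split and separate excisions after it cannot be told apart.

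The co-occurring alleles of other intBCs describe the cells that carry an excision. For each group, the indel of another intBC whose share differed most between excised cells and cells with another allele of the same intBC was taken. Each is thus the largest of many differences in these same cells. What such a search would give by chance was not tested. Of the cells with intBC 3-a excised, 105 of 110 carried a deletion of 6 bases at 220 in intBC tgctcgaatttgtc, against 2 of 3577 other cells. All 105 lay in plates 00 and 01, the 2 excised cells of plates 10 and 11 lacked it, and the 5 cells without it were uncut there. With intBC 2-a excised, 94 of 101 cells carried a deletion of 23 bases at 158 in ctgccagtcgtggc, against 28 of 3714. None of the 94 was among the 3 excised cells of plates 00 and 01. With intBC 6-a excised, 496 of 511 cells carried a deletion of 19 bases at 155 in aggtatttcttggg, against 5 of 608. That held on both sides of the split, in 351 of 362 and 145 of 149 cells. With intBC 5-b excised, 742 of 775 cells carried a deletion of 1 base at 166 in gtccgttataaagg, against 0 of 120. With intBC 4-a excised, 40 of 45 cells carried an insertion of 20 bases at 174 in tgcctcgaagcacg, against 6 of 417. With intBC 3-b excised, 53 of 56 cells carried the 54-base excision from 113 in tcgtggccggcgta, against 493 of 4862. Apart from the insertion of 20 bases, which was listed in 1 intBC, these companion indels were each listed in 24 to 62 of the 117 intBCs.

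IntBC 2-b and intBC 5-c had no such common companion. For intBC 2-b the best one, a deletion of 2 bases at 163 in ccatctctggaacc, was carried by 20 of 37 excised cells, 20 of 29 on the 0 side and 0 of 8 on the 1 side. For intBC 5-c the best one, a deletion of 3 bases at 111 in gtccgttataaagg, was carried by 73 of 262. IntBC 5-a and intBC 7-a had no cells with another allele for comparison.

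Separate origins within an intBC were counted with rare marker indels, those listed in at most 5 of the 117 intBCs. Where a marker was carried by at least 2 excised cells and at least 2 cells without the excision, the excision came after the marker if the marker arose once, so different markers at 1 cut site stand for different origins. This gave at least 67 origins over 63 groups of intBC and start position, with more than 1 origin in 3 groups. All other groups stand at 1, the lowest value the count can give. A marker of this kind was found for 39 groups. In Clone 2, ccatctctggaacc was excised in 21 cells with at least 3 origins. Its markers in cctgccttcgtcgc at cut site 3 were a deletion of 81 bases at 162, a deletion of 32 bases at 189 and an insertion of 15 bases at 221, each in 2 excised cells and in 244, 3 and 4 others. In Clone 2, atctgactagctct (28 cells) had at least 2 origins, with markers in 5 and 2 excised cells. In Clone 4, gcgtccctcattcg (28 cells) had at least 2, with markers in 16 and 2. The extra origins thus rest on 2 cells each, and none was left when 5 cells were required on each side (63 origins). With markers of any frequency, which can themselves arise again, the count was 153 origins, with at most 11 in a group and more than 1 in 36 groups.

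The deposited trees of Clones 5 and 9, which the authors built from these same characters, gave numbers of gains that depended on how cells without the intBC were counted. Counted as the largest subtrees in which every cell with the intBC listed is excised, intBC 5-a was gained 1 time in the tree of Clone 5, intBC 5-c 2 times, intBC 5-b 4 times and ggtttactgagtag 5 times. The 1 gain of intBC 5-a was fixed for any tree, since every cell with this intBC listed was excised. With cells that lack the intBC counted as not excised, the gains were 61 for intBC 5-a, 32 for intBC 5-c, 53 for intBC 5-b and 12 for ggtttactgagtag. For intBC 5-a this count rests only on which cells lacked the intBC. The largest subtrees held 1452 of 1455 leaves for intBC 5-b, 384 of 385 for intBC 5-c and 44 of 67 for ggtttactgagtag. The tree of Clone 5 has 2080 leaves for 1720 cells, so that some cells stand at more than 1 place. In Clone 9, tccttcacaggcgc was excised in 27 cells and gained 2 times, with 26 of 27 leaves in 1 subtree.

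Cells rarely carried the excision in more than 1 intBC, except in Clone 5. There 365 cells had 1 excised intBC, 893 had 2 and 291 had 3, which is 90.1% of the clone's cells with at least 1. Clone 6 had 549 cells with 1, 37 with 2 and 1 with 3. Clone 3 had 366, 16 and 1, Clone 2 had 462 and 11 with 1 and 2, and Clone 4 had 216 and 1. In Clone 10, with 10 excised intBCs, every excised cell had 1. Clones 7, 8 and 9 could give no other value, since only 1 intBC was excised in each.

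Excised cells were compared with cells that kept another allele at the same intBC, by the editing of their other intBCs. The difference was averaged over the intBCs of a clone with at least 5 cells in both sets, and the clone was the unit of an exact two-sided sign-flip permutation test, adjusted over 7 tests (Benjamini-Hochberg). The other intBCs were edited at 58.8% of sites in excised cells and 52.8% in the rest in Clone 6, and at 40.2% and 36.8% in Clone 2, where 14 of 15 intBCs pointed that way. In Clone 6 this was so in 2 of 4 intBCs, and intBC 6-a, with 578 excised cells, went the other way (43.3% and 48.8%), while the largest difference came from aggtatttcttggg with 5 excised cells (73.3% and 52.0%). All 5 of those cells also had intBC 6-a excised, against 506 of 1114 cells with another allele of aggtatttcttggg. In Clone 8 the values were 76.6% and 85.7%, for 1 intBC. Over 8 clones the mean difference was 0.541 ± 4.51 percentage points (SD, n = 8 clones; exact permutation p = 0.742, and 0.742 once adjusted). It was positive in 5 clones and negative in 3. The sign of the mean was not stable. It was 2.82 and 3.00 in plates 00 and 01 alone and -1.13 and -2.43 in plates 10 and 11 alone.

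Excised alleles had more UMIs than other alleles of the same intBC. A UMI marks 1 captured transcript. Over the 43 intBCs with at least 5 cells in both sets, the median UMIs of excised alleles ranged from 5 to 41 (median 14.5) and those of other alleles from 2 to 20 (median 9), and the excised median was higher in 41 intBCs, equal in 1 and lower in 1. For the test, UMIs were taken relative to the mean UMIs of the other intBCs in the same cell, on a log2 scale. Excised alleles exceeded the others by 0.63 ± 0.32 log2 units, or 1.54-fold (SD, n = 8 clones; exact permutation p = 0.00781, the smallest that 8 clones allow; adjusted p = 0.0273), and were higher in 8 of 8 clones. It was largest in Clone 10 (1.23) and Clone 2 (0.95). Clones 3, 6, 8, 4 and 5 followed with 0.66, 0.61, 0.51, 0.43 and 0.39, and Clone 9 was lowest with 0.24. Clones 8, 9 and 10 each rested on 1 intBC, with 28, 27 and 15 excised cells. All 15 of Clone 10 lay on the 1 side, while its intBC, tgctaatgctaaga, was read in 300 cells of the 0 side and 105 of the 1 side. In Clone 5, ggtttactgagtag set 47 excised cells of the 1 side against 1437 cells of the 0 side. In these 2 intBCs the excision and the libraries cannot be told apart, wholly for ggtttactgagtag and in large part for tgctaatgctaaga. On this measure, excised alleles were higher in 41 of 43 intBCs. The 2 lower ones were intBC 5-b (-0.14, with 1190 excised cells) and gactttaatgtaca of Clone 4 (-0.019, with 10). Within single libraries the mean difference was 0.69, 0.58, 0.58 and 0.63 in plates 00, 01, 10 and 11. Leaving out any of Clones 2, 3, 4, 6, 8, 9 or 10 gave an adjusted p of 0.0547, and leaving out Clone 5 gave 0.0365, each with the smallest exact permutation p that 7 clones allow (0.0156).

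The comparison was repeated against each kind of allele, over the clones that held it. Against uncut alleles of the same intBC it was 0.97 ± 0.22 log2 units, with excised alleles higher in 5 of 5 clones and in 34 of 34 intBCs. With 5 clones the exact permutation test cannot go below p = 0.0625, the value found (adjusted p = 0.109). Against 54-base excisions it was 0.54 ± 0.26 (n = 7 clones, higher in 7 of 7; exact permutation p = 0.0156, the smallest possible; adjusted p = 0.0365), and it lost the call without any 1 clone (adjusted p = 0.0729). Against other deletions across all 3 sites it was 0.45 ± 0.37 (n = 5 clones, higher in 4 of 5; exact permutation p = 0.125; adjusted p = 0.175), and it turned to -0.0085 among alleles of at least 5 UMIs (exact permutation p = 0.875). In 34 intBCs of 5 clones that had at least 5 alleles of each kind, the mean of log2 relative UMIs was -0.44 for uncut alleles, -0.16 for 54-base excisions and 0.50 for 108-base excisions, in that order in 31 of 34 intBCs.

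Reads per UMI followed the same order. In those 34 intBCs the geometric means were 120 reads per UMI for uncut alleles, 150 for 54-base excisions and 172 for 108-base excisions, again in that order in 31 of 34. Against all other alleles of the same intBC, excised alleles had 0.40 ± 0.11 more log2 reads per UMI, or 1.32-fold (SD, n = 8 clones; exact permutation p = 0.00781; adjusted p = 0.0273). They were higher in 8 of 8 clones and 43 of 43 intBCs, from 0.25 in Clone 4 to 0.59 in Clone 10. Reads per UMI were not tested against other deletions across all 3 sites. In most intBCs that held both kinds, the 108-base excisions had fewer. The mean log2 reads per UMI of 108-base excisions and those deletions were 7.50 and 7.60 in tatacctttggaaa and 7.15 and 7.43 in ttccattcttccgc. In catcattcgcaagt they were 7.78 and 7.47, the other way. Within plates 00, 01, 10 and 11 the difference was 0.44, 0.43, 0.33 and 0.37. All other alleles had medians of 128, 122, 173 and 138 reads per UMI in those plates. The values of Clone 10 and of ggtttactgagtag in Clone 5 thus also hold differences between libraries. The adjusted p was 0.0547 without any of Clones 2, 3, 4, 6, 8, 9 or 10 and 0.0365 without Clone 5. The length deleted and the reads per UMI thus moved with the UMIs, and their part in the difference of UMIs was not tested.

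The 4 libraries differed in the share of excised alleles. They held 70266, 78422, 72528 and 80613 alleles with 812480, 790152, 679952 and 802551 UMIs in plates 00, 01, 10 and 11. The share was 3.46% (exact 95% interval 3.32 to 3.60%), 3.67% (3.54 to 3.80%), 0.809% (0.745 to 0.877%) and 0.625% (0.572 to 0.682%). Without Clones 5 and 7, which lay mostly in plates 00 and 01, it was 0.767%, 0.799%, 0.625% and 0.499%. Within clones, the share on the 0 side minus that on the 1 side was 15.6 percentage points in Clone 5 (29.7% and 14.2%) and 5.97 in Clone 6 (13.0% and 6.99%). Clones 7, 4 and 3 had 2.44, 0.615 and 0.194. It was -0.0258 in Clone 2 and -1.35 in Clone 10, and 0 in Clones 1 and 11, which had no excision. The value of Clone 7 is not a difference in excision. Its only excised intBC was excised in every cell in which it was read, in every plate. The share of alleles there follows how many other alleles were listed per cell. Clones 8 and 9 had fewer than 20 cells on the 0 side and were left out. The mean over the other 9 clones was 2.60 ± 5.31 percentage points (SD, n = 9; exact permutation p = 0.156, adjusted p = 0.182). Clones 1 and 11, with no excision, could only give 0 and add nothing to this test. Without either of them the mean was 2.93. The test did not pass, and the mean was 0.980 without Clone 5. In all, 621 cell barcodes occurred in more than 1 library, and 4 pairs of such a barcode and an intBC were excised in more than 1 of them. With those cells left out, the difference in UMIs was 0.61 and that in reads per UMI 0.40.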

How the data were processed

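Target site transcripts of 4 A549 libraries were sequenced by the authors, who deposited 1 allele table. Its UMI and read counts per cell and intBC are as deposited, not normalized. Per the submitters' notes and the methods, the authors ran Cell Ranger 2.0.1, built a consensus for each UMI, compared it with the target site reference, dropped thinly read UMIs and cells with few UMIs, and kept for every cell and intBC the allele richest in UMIs. The methods also describe a search for doublets of cells from the same and from different clones, by conflicting alleles and by intBC sets, with removal of those found. No doublet caller was run here. No genome build is given in the sources used here. Indel text and clone numbers were used as deposited. Trees of Clones 5 and 9 were deposited as text.

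Alleles were taken as 108-base excisions where the 3 cut sites held the same text with a single deletion of 108 bases. Members, tests and rules for named items (every clone and start position, the 10 largest groups, those with the most origins and intBCs with several start positions) were chosen with earlier results of these data known. Marker indels were compared without context bases. Intervals are Clopper-Pearson, and limits for a count of 0 are 3 counts of the total. Alternatives covered UMIs, plates, clones, cells per set and marker rules. The methods were tested on simulated data. In simulated trees of 256 cells whose markers each arose once, the origin count found 51 of 169 true origins (30.2%). The clones differ from such trees in cells, intBCs and repeated indels, so this share does not measure the origins missed in them. The cell type could not be checked, since no other transcripts were analysed here. Python 3.11.15, numpy 2.4.6, pandas 2.3.3 and scipy 1.17.1 were used.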

Additional observations from a re-analysis of the deposited data

Results flagged for a closer look

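Cells outside the 11 clones, which entered no comparison, held 95 of the 108-base excisions. These cells number 121, with 702 alleles in 13 intBCs that occur in no clone, and 4 of the 13 intBCs carried the excision. In 90 of the 95 it lay in intBC tttttcttgatgta, which was excised in 90 of 100 cells, 56 of 59 in plate 10 and 34 of 40 in plate 11.

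The share of excised alleles was higher in both plates of the 0 side than in both plates of the 1 side in Clones 3, 4, 5, 6 and 7, and lower in both in Clone 10, with a difference of -1.35 percentage points. In Clone 7 the only excised intBC was excised wherever it was read, in every plate, so its order follows the number of other alleles listed per cell. The plates of Clone 10 held 10, 4, 6 and 12 excised alleles, and 15 of the 18 on the 1 side lay in intBC tgctaatgctaaga. The difference between clones was not tested.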

How the results depend on the processing

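No paired analysis was possible because each plate has 1 library, so that no replicate numbers can pair plates. Excised and other alleles were compared within an intBC and clone throughout. The excess of UMIs over all other alleles kept its sign in all 19 alternatives (0.50 to 0.69) and was past the threshold in 6, the excess of reads per UMI in all 18 (0.33 to 0.44) and in 6, and the excess of UMIs over 54-base excisions in all 18 (0.47 to 0.71) and in 3. Where fewer clones entered, the smallest possible p was larger. The single plates and the removal of shared barcodes were chosen after seeing the data. Against all other alleles, 54-base excisions and in reads per UMI, the differences were 0.63, 0.61 and 0.42 on the 0 side alone, 0.69, 0.59 and 0.44 in plate 00, 0.58, 0.71 and 0.43 in plate 01, 0.58, 0.54 and 0.33 in plate 10, and 0.58, 0.53 and 0.37 with at least 20 cells in both sets, none of them past the threshold. Against 54-base excisions the 1 side alone (0.56) and plate 11 (0.53) also missed it, and with UMIs not set against the cell it was missed by 0.62 against all other alleles and 0.56 against 54-base excisions; the cause was not tested. Leaving out 1 clone gave 0.54 to 0.68, 0.47 to 0.59 and 0.37 to 0.42. Against other deletions across all 3 sites the difference turned to -0.0085 at a minimum of 5 UMIs and was 0.33 to 0.56 with 1 clone left out, and against uncut alleles it was then 0.89 to 1.03. The editing of other intBCs turned sign on the 1 side (-2.41), in plates 10 (-1.13) and 11 (-2.43), with at least 20 cells (-0.450), with medians over intBCs (-0.0070) and without Clone 6 (-0.252 to 1.91 with 1 clone left out). The share between first-split plates missed the threshold in every alternative, with 0.980 to 3.10 when 1 clone was left out, and by the second digit of the plate the difference was 0.258. The pooled share of 2.09% in the 11 clones was 2.64% at a minimum of 5 UMIs, 3.57% on the 0 side and 0.655% on the 1 side, where 999 excised alleles were found in place of 6303. Pearson's r against editing was 0.63 on the 0 side. Origins numbered 153 with markers of any frequency and 48 to 84 in the other 7 alternatives. With cells that lack the intBC counted as not excised, gains in the tree of Clone 5 were 61 for intBC 5-a, 53 for intBC 5-b, 32 for intBC 5-c and 12 for ggtttactgagtag. With 1 library per plate, differences between plates have no replicate check.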
